A study of Mus musculus with 12 samples.

Results

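Gene expression in spheres grown from alprostadil-treated wounds was set against that in spheres from intact skin, by sample title: 3 arrays of skin-derived precursors (SKPs) from wounded skin given alprostadil, and 3 from skin that was not injured and was given vehicle, 6 of the 12 arrays of the series. All cells came from mice aged 9 months, with the strain labelled CD57/Bl6, and the isolates are described as independent. The medium of the secondary spheres held 40 ng/ml of FGF2, 20 ng/ml of EGF and 2% B27, and cells were seeded at 50000 per ml. The other 6 arrays, 3 of wounds given vehicle and 3 of wounds given trimebutine maleate, entered the same model. For the drug dose, the time of treatment and the skin site, no source used here gives a value. Injury and alprostadil differ together between the groups, so their parts in a difference cannot be told apart in this comparison, and in grown spheres a change in the share of a cell type and a change in RNA per cell cannot be told apart.

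SKPs are dermal cells that float as spheres under FGF2 and EGF, and they share genes with the dermal papilla, the cell cluster at the base of the hair follicle. Alprostadil is prostaglandin E1. It binds the EP receptors and the prostacyclin receptor, several of which raise cyclic AMP, which activates protein kinase A and the transcription factor CREB and is broken down by phosphodiesterases.

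Values are log2 expression per gene from Affymetrix Mouse Gene 2.0 ST arrays, and a difference of 1 is a factor of 2. Of 22180 genes with a symbol, 13153 exceeded the median of the array on 3 or more of the 12 arrays and were tested with limma. P-values were adjusted by Benjamini-Hochberg over these genes, and a gene passed at an adjusted p under 0.05. Array medians were 6.57, 6.72 and 6.74 in the alprostadil group and 6.61, 6.72 and 6.72 in the uninjured group. Within the alprostadil group the correlations between arrays over tested genes were 0.936 to 0.961, and within the uninjured group 0.962 to 0.987, as descriptions across genes. Pdgfra, a receptor of dermal fibroblasts, was 11.19, 11.43 and 12.52 with alprostadil and 12.38, 12.55 and 11.92 in uninjured spheres. The matrix gene Fn1 lay between 13.81 and 13.94 on the 6 arrays. Of the SKP markers, Nes was 6.6 to 6.99 on these arrays, near the array medians, and Sox2 was 4.69 to 5.61 and was not tested. The signal of Pdgfra and Fn1 was thus high, while that of Nes was near the array medians and that of Sox2 below them. Of 31 matched genes of SKPs and the dermal papilla, 25 exceeded the array median often enough to be tested. Nes and Sox2 alone therefore do not decide on the labelled cell type.

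3 of the 6 arrays stood apart from their group. Alprostadil replicate 1 was the highest array for the macrophage markers. Alprostadil replicate 3 lay close to uninjured replicates 1 and 2 in many gene lists, and uninjured replicate 3 lay toward alprostadil replicates 1 and 2. Among the other arrays of the series, vehicle wound replicate 3 was also apart from vehicle wound replicates 1 and 2 in many lists. The results that follow give the value on each array for this reason.

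No gene passed in limma (0 of 13153, a percentage of 0). An unadjusted p under 0.05 was found for 954 genes (7.25%), 432 of them higher (3.28%) and 522 lower (3.97%) in the alprostadil group. Chance would give 657.65 on average. The count was 475 without uninjured replicate 1 and 2014 without alprostadil replicate 3, so single arrays moved it to either side of that average. The smallest adjusted p was 0.111 and was shared by Nova1 and Dhrs3, which were higher in the alprostadil group, and by C1ql1, Hoxc9 and Bcl11b, which were lower. The arrays of the 2 groups did not overlap for 1238 genes (9.41%), 664 higher (5.05%) and 574 lower (4.36%), and 250 genes differed by more than 1. For a gene that does not differ, full separation of 3 arrays from 3 in either direction has a probability of 0.1. The share of 9.41% is not above that, so a lack of overlap in a single gene is a description and no finding. The median difference of all tested genes was 0.02. Without uninjured replicate 3, 11 genes passed: Galnt16, Lvrn, Dhrs3, C1ql1, Eya4, Prrt1, Bcl11b, Hoxc10, Star, Scara5 and Nova1. Leaving out each of the other 11 arrays in turn left the count at 0, while a fit that weights each array by its residual spread gave 562, with weights from 0.30 for alprostadil replicate 1 to 5.99 for uninjured replicate 2. The medians of gene lists given in the following paragraphs also moved with single arrays, and values without such an array are given for most of them.

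Among the genes with the smallest p on the higher side, Nova1, a neuronal splicing regulator, was 8.57, 8.48 and 8.18 with alprostadil and 6.90, 7.34 and 7.42 in uninjured spheres. All 3 alprostadil arrays lay above the highest uninjured array, and the difference was 1.19 ± 0.16 (SE, n = 3 per group; limma adjusted p = 0.111), 2.28-fold. Dhrs3, which reduces retinaldehyde to retinol, was 10.68, 10.66 and 10.12 against 8.56, 7.99 and 9.10, a difference of 1.94 ± 0.28 or 3.83-fold. Its groups were apart by about 1 at their nearest arrays. Star, the mitochondrial cholesterol carrier of steroid-forming cells, was 9.79, 9.90 and 9.08 against 7.03, 6.84 and 8.55, and differed by 2.12 ± 0.44 (limma adjusted p = 0.305). Here uninjured replicate 3 was the array nearest to the alprostadil group.

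The GATA factors Gata6 and Gata2, which set cell identity in several lineages, were both higher in the alprostadil group. Gata6 was 9.66, 9.92 and 9.74 against 8.75, 8.64 and 8.75, with a spread within each group far below the difference of 1.06 ± 0.20. Gata2 was 8.0, 8.19 and 8.07 against 7.47, 7.38 and 7.69, with a difference of 0.57 ± 0.10. Pde3b, a phosphodiesterase that breaks down cyclic AMP, was 9.46, 9.61 and 8.94 against 7.97, 8.39 and 7.74 and differed by 1.30 ± 0.26. The adjusted p in limma was 0.259 for each of these 3 genes. The other 6 of the 12 higher genes differed by 0.39 to 0.77. They were Cep68, of the centrosome linker, Dlgap1, a postsynaptic scaffold, Mboat2, a lysophospholipid acyltransferase, Tmpo, of the nuclear lamina, Pdp1, the phosphatase of pyruvate dehydrogenase, and Plekhh3.

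On the lower side, Bcl11b, a zinc-finger transcription factor of T cells and skin, was 6.44, 6.43 and 7.29 against 9.44, 8.72 and 8.22. Its uninjured arrays lay above all alprostadil arrays, a difference of -2.07 ± 0.31, 4.21-fold lower with alprostadil (n = 3 per group; limma adjusted p = 0.111). C1ql1, a secreted protein of the C1q family, was 6.73, 6.47 and 6.89 against 7.91, 7.70 and 7.43 (-0.98 ± 0.14). The alprostadil values of these genes lie near the array medians, where a log2 difference understates a fold. Mmp1b, of the interstitial collagenase family, was 6.49, 6.62 and 7.05 against 7.83, 7.73 and 7.84 (-1.08 ± 0.18, limma adjusted p = 0.259). Its uninjured arrays were tight, and alprostadil replicate 3 was the nearest to them. The alprostadil values of Mmp1b also lie near the array medians.

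Itgb8, an integrin subunit that activates latent TGF-beta, was 8.39, 7.69 and 8.24 against 9.38, 9.32 and 9.44 (-1.27 ± 0.24), with the uninjured arrays again tight and above all alprostadil arrays. Tnfrsf11b (osteoprotegerin, a decoy receptor for the osteoclast factor RANKL) differed by -1.19 ± 0.22. Art3, Syt13 and Lrrtm3 differed by -0.96, -1.15 and -0.88, and Gpr18 and Tubg2 by -0.52 and -0.53. The 24 genes of smallest p were chosen by their differences on these arrays, so the lack of overlap between the groups in all 24 is part of that choice.

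**Figure D1:**
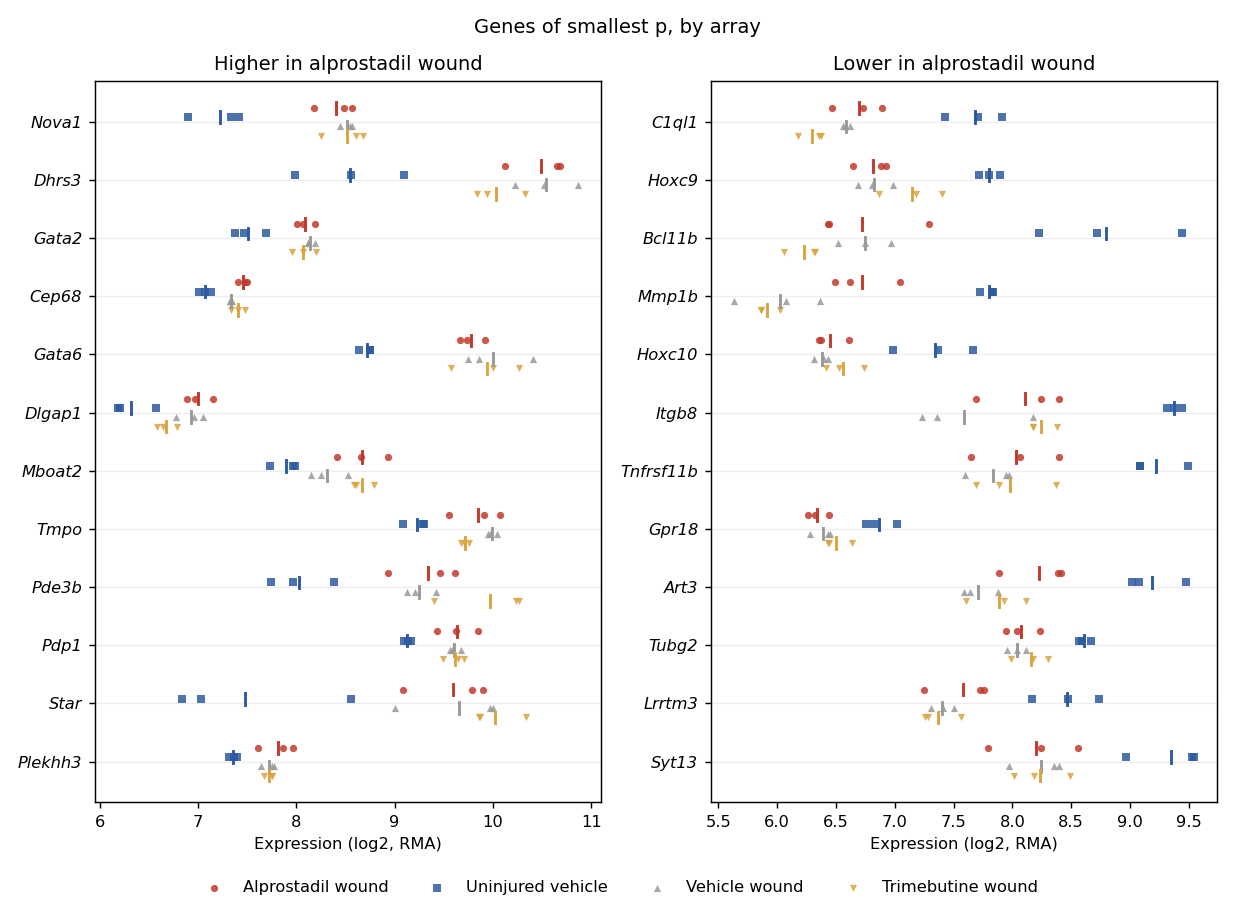
Log2 expression (x axis) of the 12 genes of smallest p in each direction, one row per gene, with a point for each array and a bar at each group's mean. The 3 alprostadil arrays (circles) and the 3 uninjured arrays (squares) do not overlap in any of the 24 rows, and the vehicle and trimebutine wound arrays are shown beside them.

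Of the 8 largest higher differences among genes of unadjusted p under 0.05, Star and Dhrs3 are described above, and the other 6 had SEs of 0.49 to 0.86. Slc40a1 (ferroportin, the iron exporter) was 9.68, 11.08 and 10.55 against 7.37, 8.09 and 9.46, a difference of 2.13 ± 0.57 (limma adjusted p = 0.523). The nearest arrays of its groups lay only 9.68 to 9.46 apart, and uninjured replicate 3 was again the highest of its group. F11r, a junctional adhesion molecule, was 10.24, 9.14 and 7.95 against 7.20, 7.29 and 7.51 (1.78 ± 0.49), without overlap. Cdh5, the cadherin of endothelial junctions, was 9.20, 8.90 and 8.07 against 7.37, 7.52 and 6.41 (1.62 ± 0.72). Arhgap20, Egln3, an oxygen-sensing prolyl hydroxylase, and Slc38a1, a glutamine transporter, differed by 2.01 ± 0.86, 1.77 ± 0.72 and 1.6 ± 0.70, and the groups overlapped in each.

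The 8 largest differences on the lower side were without overlap and had adjusted p in limma of 0.375 to 0.680. Il23r, a subunit of the interleukin-23 receptor, was 5.81, 4.07 and 5.49 with alprostadil and 10.09, 9.19 and 6.49 in uninjured spheres (-3.47 ± 0.97). All 3 alprostadil values of Il23r lie below the array medians, where signal is weak, so the size of its difference is uncertain. Uninjured replicate 3 held less than the other uninjured arrays by more than 2 log2 units. Reg3g, an antimicrobial lectin of epithelia, was 8.52, 5.22 and 9.87 against 11.09, 11.41 and 10.83 (-3.24 ± 1.15), with alprostadil replicate 2 the lowest array. Lvrn, an aminopeptidase, was 6.65, 5.79 and 6.26 against 9.42, 9.37 and 7.23 (-2.44 ± 0.55). Ctla2a, Cyp2f2, Nrk, Folh1 and the matricellular protein Smoc2 differed by -2.92, -2.75, -2.23, -2.20 and -2.17. For each of these 5 alprostadil replicate 2 was the lowest of the 6 arrays.

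Positional genes without overlap between the groups were found in both directions. Hox genes record the position of a cell along the body axis, and fibroblasts keep their pattern in culture. Of 36 matched Hox genes 21 were tested, and 7 of them (33.3%, against 9.41% of all tested genes) were without overlap, 3 higher and 4 lower, so the median was only -0.07 (-0.17 without alprostadil replicate 2 and -0.04 without uninjured replicate 3). The direction differed by cluster. In the Hoxa cluster 5 of 5 tested genes lay below 0, in the Hoxb cluster 6 of 7 lay above 0, in the Hoxc cluster 4 of 6 lay below 0, and 3 Hoxd genes had differences of -0.20 to 0.02. No member passed, and the clusters were read after their values were seen.

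Hoxc9 was 6.92, 6.64 and 6.88 with alprostadil and 7.90, 7.80 and 7.72 in uninjured spheres (-0.99 ± 0.14, n = 3 per group; limma adjusted p = 0.111). Hoxc10, its neighbour, was 6.36, 6.38 and 6.61 against 7.67, 7.36 and 6.99 (-0.89 ± 0.16). Hoxc8 and Hoxc6, further along the cluster, overlapped between the groups and differed by -0.28 ± 0.23 and -0.15 ± 0.14. Hoxa5 was 6.33, 6.65 and 6.54 against 6.90, 7.17 and 6.84 (-0.46 ± 0.19), and Hoxa6 was 7.98, 7.85 and 8.08 against 8.54, 8.50 and 8.29 (-0.47 ± 0.13). In the Hoxb cluster the order was turned. Hoxb4 was 7.28, 7.78 and 7.82 with alprostadil and 7.18, 7.11 and 7.16 in uninjured spheres (0.48 ± 0.18), Hoxb3 differed by 0.38 ± 0.14 and Hoxb2 by 0.36 ± 0.10. The adjusted p of these Hoxa and Hoxb genes in limma was 0.538 to 0.656.

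Of 30 tested genes of other positional and patterning families, 12 (40%, against 9.41% of all tested genes) were without overlap, 5 higher and 7 lower, with a median of -0.02. Both positional lists were drawn up with earlier results of these arrays known, and they hold genes named above for their small p, so these shares are in part set by that choice. Tbx5, a T-box factor of forelimb and heart, was 7.36, 7.88 and 7.0 against 6.48, 6.0 and 6.53 (1.08 ± 0.29, limma adjusted p = 0.538). Prdm8, a chromatin regulator, was 8.37, 8.55 and 7.47 against 6.42, 6.66 and 7.36 (1.32 ± 0.29), so its groups were nearest at alprostadil replicate 3 and uninjured replicate 3. The orphan receptor Nr2f2 was higher by 0.47 ± 0.12 and its relative Nr2f1 lower by 0.32 ± 0.10. Zic1, a zinc-finger factor of the dorsal body, was 9.32, 9.66 and 10.30 against 10.62, 10.61 and 10.92 (-0.95 ± 0.28). En1, a marker of the dorsal dermal lineage, and Tbx15, a T-box factor of coat patterning, differed by -0.62 ± 0.21 and -0.47 ± 0.18 with overlap. Tbx1 and 3 Iroquois genes, Irx2, Irx5 and Irx6, differed by -0.30 to -0.13 without overlap.

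**Figure D2:**
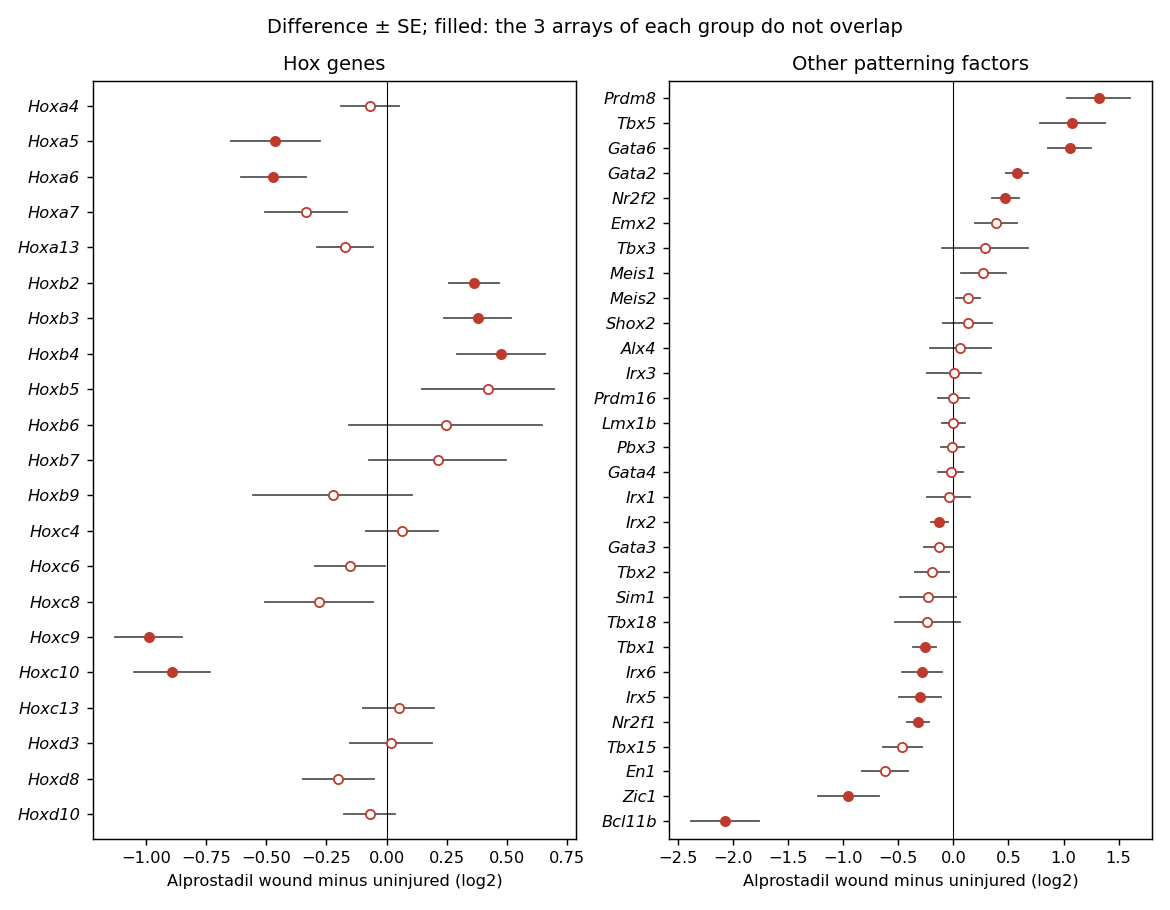
Difference between alprostadil wound and uninjured spheres (x axis, log2; positive is higher with alprostadil) for each tested Hox gene, in order of cluster, and each tested gene of other patterning families, in order of difference. Bars are the SE, and filled points mark the 7 Hox and 12 other genes whose arrays do not overlap between the groups, with Bcl11b and Hoxc9 the farthest below 0.

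The other wound groups were set against the same 3 uninjured arrays, so their values are not independent of those above. Hoxa6 differed by -0.66 in vehicle wounds and -0.53 in trimebutine wounds, Hoxb4 by 0.63 and 0.51, Tbx5 by 1.77 and 1.97, and Zic1 by -1.36 and -1.89. Against uninjured spheres 6 genes passed in vehicle wounds (0.0456%) and 26 in trimebutine wounds (0.198%). Without uninjured replicate 1 both counts were 0, and without uninjured replicate 3 the vehicle count was 30. Nova1 was among both sets (limma adjusted p = 0.0338 and 0.0340), with differences of 1.30 and 1.29. Bcl11b passed in trimebutine wounds (adjusted p = 0.0285) and not in vehicle wounds (0.0605). Between alprostadil and vehicle wounds themselves no gene passed in limma (0 of 13153, a percentage of 0), and 362 genes had an unadjusted p under 0.05 (2.75%).

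Collagen and matrix genes lay mostly below 0 as lists, and the share of members without overlap ran from 4.76% for collagen chains to 26.7% for matrix proteases, against 9.41% of all tested genes. Of 21 tested collagen chains 18 lay below 0, with a median of -0.55 against 0.02 for all tested genes, and 1 (4.76%) was without overlap. That gene was Col18a1, a basement membrane collagen, at 9.84 to 10.004 with alprostadil against 10.96, 10.84 and 10.37 (-0.81 ± 0.16, limma adjusted p = 0.269). The list score, the mean of the members with each gene set to 0 over the 12 arrays, was -0.35, -0.55 and 0.35 on the alprostadil arrays and 0.39, 0.51 and 0.02 on the uninjured arrays. Alprostadil replicate 3 thus stood with the uninjured arrays, and the median was -0.85 without it and -0.31 without alprostadil replicate 2. The fibrillar chains Col1a1 and Col3a1 differed by -0.32 ± 0.31 and -0.55 ± 0.47, and the basement membrane chains Col4a1 and Col4a2 by -0.77 ± 0.33 and -0.68 ± 0.30.

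Of 28 matrix glycoproteins and proteoglycans 24 lay below 0 (median -0.26), and 6 (21.4%, against 4.36% of all tested genes on the lower side) were without overlap, all lower. The median was -0.44 without alprostadil replicate 3 and -0.13 without alprostadil replicate 2. Tnxb, a tenascin that binds collagen fibrils, was 7.75, 8.07 and 8.96 against 10.96, 10.10 and 9.24 (-1.84 ± 0.42, limma adjusted p = 0.389). Thbs1 (thrombospondin, which activates latent TGF-beta) was 10.79, 10.22 and 11.27 against 12.19, 12.11 and 11.50 (-1.17 ± 0.31). In both genes the groups were nearest at their replicates 3. Lum, a small proteoglycan of collagen fibrils, Tnc and Thbs4 differed by -1.14 ± 0.43, -1.12 ± 0.45 and -1.82 ± 0.82, and Dcn (decorin) by -0.13 ± 0.07.

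Elastic fibre and cross-linking genes went in both directions, with 17 of 24 below 0 (median -0.38, from -0.51 without alprostadil replicate 3 to -0.25 without alprostadil replicate 2). Of the 24, 3 were apart on the higher side and 2 on the lower (20.8%, against 9.41% of all tested genes). Eln (elastin) was 7.10, 6.86 and 8.91 against 9.01, 9.79 and 8.25 (-1.39 ± 0.64), and its groups overlapped through replicate 3 of each. Fbln5, which assembles elastic fibres, was 9.34, 8.66 and 9.54 against 10.35, 10.47 and 9.65 (-0.98 ± 0.38). On the other side were Emilin2 (1.15 ± 0.31), Ltbp4 (0.71 ± 0.34) and Plod2, a collagen lysyl hydroxylase (0.50 ± 0.14). The lysyl oxidase Loxl4 differed by -0.48 ± 0.18 with overlap.

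Matrix proteases had 8 of 30 members without overlap (26.7%, against 9.41% of all tested genes), 6 lower and 2 higher. Of the 30, 24 lay below 0, with a median of -0.38 (-0.55 without alprostadil replicate 3 and -0.24 without alprostadil replicate 2). The collagenase Mmp13 was 9.93, 10.61 and 11.67 against 12.05, 12.50 and 12.21 (-1.52 ± 0.44, limma adjusted p = 0.552). Mmp1a was 10.03, 9.97 and 10.26 against 11.32, 10.96 and 10.90 (-0.97 ± 0.34). The stromelysins Mmp3 and Mmp10 differed by -0.28 ± 0.10 and -1.44 ± 0.87, and Mmp19 by -0.57 ± 0.23. Mmp12, the macrophage elastase, went the other way at 10.75, 9.25 and 9.73 against 8.49, 8.39 and 8.73 (1.37 ± 0.49), and was highest on the array with the macrophage transcripts. Its difference was 0.96 without that array. The metalloprotease Adam19 differed by 0.32 ± 0.08. Contractile genes had a median of -0.04 (-0.25 without uninjured replicate 3), with the myosin light chain Myl9 at -0.26 ± 0.09 and Synpo2 at -0.31 ± 0.19, and Acta2, the smooth muscle actin of myofibroblasts, was 8.53, 8.40 and 9.67 against 8.75, 8.83 and 8.56 (0.15 ± 0.51), with a 95% interval of -0.98 to 1.28.

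Among genes of SKPs and the dermal papilla, 19 of 25 lay below 0 (median -0.22, from -0.32 without uninjured replicate 3 to -0.16 without alprostadil replicate 2), and 8 (32%, against 4.36% of all tested genes on the lower side) were without overlap, all lower. This list too was drawn up with earlier results of these arrays known. Trps1, a GATA-type repressor of hair follicle mesenchyme, was 9.00, 9.13 and 9.07 against 9.56, 9.86 and 9.45 (-0.56 ± 0.12, limma adjusted p = 0.361), with both groups tight. Corin, a protease of the dermal papilla, was 6.98, 7.24 and 7.30 against 7.92, 7.69 and 7.34 (-0.48 ± 0.17). Rspo3, a secreted potentiator of Wnt signalling, was 8.93, 7.78 and 9.63 against 10.68, 10.66 and 9.85 (-1.62 ± 0.43). Its relative Rspo2, a signal from the dermal papilla to the follicle, was 6.88, 6.55 and 7.20 against 8.17, 8.13 and 7.54 (-1.07 ± 0.24). In both genes replicate 3 of the uninjured group was its lowest array and replicate 3 of the alprostadil group its highest. Over the Wnt list 23 of 31 members lay below 0, with a median of -0.21 that was -0.43 without uninjured replicate 3 and -0.05 without uninjured replicate 1. Rspo2 and Rspo3 were the only members without overlap (6.45%, against 9.41% of all tested genes in either direction). Lgr5, a receptor for R-spondins, differed by -1.24 ± 0.50 with overlap.

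Growth factor ligands had 5 of 26 members without overlap, all lower (19.2%, against 4.36% of all tested genes on the lower side), and a median of -0.25. That median was -0.44 without alprostadil replicate 3 and -0.13 without alprostadil replicate 1. Fgf7 (keratinocyte growth factor, a dermal signal to the epidermis) was 9.33, 8.51 and 10.19 against 11.06, 10.71 and 10.68 (-1.47 ± 0.44, limma adjusted p = 0.565). Pdgfd was 8.43, 7.96 and 8.89 against 9.57, 9.57 and 9.22 (-1.03 ± 0.31). Hgf, a motility factor for epithelium, was 11.08, 10.90 and 10.84 against 11.55, 11.39 and 11.31 (-0.48 ± 0.17), with both groups tight. Nrg1 and Vegfc, a lymphatic growth factor, differed by -1.01 ± 0.39 and -0.67 ± 0.28. Of 18 growth factor receptors 14 lay below 0 (median -0.14, from -0.29 without uninjured replicate 3 to -0.05 without uninjured replicate 1). Among them the ephrin receptor Epha3 differed by -1.31 ± 0.43 without overlap, the EGF receptor gene Egfr by -0.86 ± 0.33 with overlap, and Tek, the angiopoietin receptor, by 0.54 ± 0.18 with overlap. Of guidance cues and receptors 5 of 31 were apart, all lower (16.1%, against 4.36% of all tested genes on the lower side). The list median of -0.28 was -0.06 without alprostadil replicate 2. The ephrin Efna5 differed by -0.60 ± 0.19, and Slit3 led the list at 10.44, 10.26 and 11.80 against 12.11, 12.28 and 11.89 (-1.26 ± 0.39).

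TGF-beta genes had a median of -0.32, which was -0.37 without uninjured replicate 3 and -0.07 without alprostadil replicate 2, with the co-receptor Eng lower by 0.83 ± 0.29 and the activin subunit Inhbb lower by 0.63 ± 0.20, the co-receptor Tgfbr3 lower by 0.50 ± 0.16, and Gdf10 higher by 0.83 ± 0.57 through alprostadil replicate 3 (9.60, against at most 8.09 on the other 5 arrays). BMP genes had a median of -0.09 (-0.15 without uninjured replicate 3 and 0.01 without uninjured replicate 1) and split by member. Bmp4 was 6.67, 6.92 and 6.63 against 8.16, 7.50 and 6.95 (-0.80 ± 0.28), and Bmp5 was 8.80, 8.62 and 8.97 against 6.90, 6.82 and 8.41 (1.42 ± 0.41). Id1, a target of BMP signalling that blocks bHLH factors, was 7.99, 8.20 and 8.20 against 7.16, 7.27 and 7.04 (0.97 ± 0.29), with both groups tight. The adjusted p in limma was 0.552 to 0.636 for these 3.

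Notch genes lay above 0 in 10 of 14 cases (median 0.10, from 0.03 without alprostadil replicate 3 to 0.17 without uninjured replicate 3), and 3 (21.4%, against 5.05% of all tested genes on the higher side) were without overlap, all higher. The member of smallest p went the other way: the ligand Dll1 was 7.27, 7.06 and 7.47 with alprostadil and 8.23, 8.03 and 7.39 in uninjured spheres (-0.62 ± 0.20, limma adjusted p = 0.636), with overlap at replicate 3. The ligand Jag1 was 9.56, 9.99 and 9.19 against 8.45, 8.85 and 9.12 (0.77 ± 0.28), and the receptor Notch2 was 10.87, 11.15 and 10.92 against 10.62, 10.64 and 10.65 (0.34 ± 0.14). Dlk1, an imprinted member of the family that marks early dermal fibroblasts, was 8.55, 10.02 and 9.94 against 7.67, 8.13 and 8.12 (1.53 ± 0.59). The adjusted p of Jag1, Notch2 and Dlk1 in limma was 0.636 to 0.657. Another imprinted gene, the growth inhibitor Cdkn1c, was 8.32, 8.50 and 8.41 against 7.44, 7.91 and 7.80 (0.70 ± 0.24), and Peg3, also imprinted, differed by -1.50 ± 0.61 with overlap.

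Chemokine, cytokine and NF-kB target genes lay below 0 in 29 of 35 cases (median -0.44). Of the 35, 9 (25.7%, against 4.36% of all tested genes on the lower side) were without overlap, all lower. Cxcl1, which attracts neutrophils, was 8.61, 7.42 and 7.91 against 9.72, 8.91 and 9.03 (-1.24 ± 0.49, limma adjusted p = 0.656). Ccl2 and Ccl7, which attract monocytes, were lower by 0.93 ± 0.40 and 0.73 ± 0.24. Ccl2 was 12.42, 11.61 and 12.70 against 13.50, 13.25 and 12.77, so its groups nearly met at replicate 3. Lcn2, an iron-binding protein of innate immunity, was 10.55, 10.47 and 10.03 against 11.70, 11.64 and 11.24 (-1.18 ± 0.30), with a wide gap between the groups. Steap4, a metal reductase induced by inflammation, was 10.42, 9.54 and 11.04 against 12.38, 12.22 and 11.49 (-1.70 ± 0.40). The adhesion molecule Icam1 differed by -0.84 ± 0.32 and the superoxide dismutase Sod2 by -0.72 ± 0.29. The list median was -0.64 without alprostadil replicate 1 and -0.30 without alprostadil replicate 2.

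Interferon response genes lay below 0 in 27 of 30 cases with a median of -0.36 (-0.59 without alprostadil replicate 3 and -0.21 without alprostadil replicate 1). Only 1 (3.33%, against 9.41% of all tested genes) was without overlap. That gene was Isg15, a ubiquitin-like modifier, at 6.67, 6.63 and 7.14 against 7.21, 7.34 and 7.16 (-0.43 ± 0.15). The list scores were -0.37, -0.33 and 0.39 on the alprostadil arrays and 0.30, 0.39 and 0.09 on the uninjured arrays, so alprostadil replicates 1 and 2 were low and replicate 3 was not. Ifit2 and the interferon regulatory factor Irf7 differed by -0.50 ± 0.21 and -0.87 ± 0.36 with overlap. Antigen presentation genes were below 0 in 13 of 15 cases (median -0.28, from -0.39 without uninjured replicate 3 to -0.15 without alprostadil replicate 2). The immunoproteasome subunit Psmb9, the peptidase Erap1 and the peptide transporter Tap2 differed by -0.59 ± 0.20, -0.34 ± 0.15 and -0.34 ± 0.16, and of these Erap1 was without overlap. Complement genes were also below 0 in 13 of 15 cases (median -0.47, from -0.73 without uninjured replicate 3 to -0.35 without alprostadil replicate 1). The C1q family member C1ql1, named above for its small p, is counted in this list and was its member of smallest p. Of the 15, 2 (13.3%, against 4.36% of all tested genes on the lower side) were without overlap, C1ql1 and C1ra, both lower. C1rb differed by -0.66 ± 0.20, and C1ra, a protease of the first complement component, was 8.58, 8.12 and 8.81 against 9.25, 9.27 and 9.16 (-0.72 ± 0.20).

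Scores of metabolism, stress and division lists overlapped between the groups and differed widely within them. All 18 cholesterol synthesis genes lay below 0 (median -0.56), and 0 were without overlap (against 9.41% of all tested genes). Their scores were 0.47, -0.79 and 0.04 with alprostadil and 0.76, 0.71 and -0.11 in uninjured spheres, and the median was -0.20 without alprostadil replicate 2 and -0.90 without alprostadil replicate 1. Hmgcs1, an early enzyme of the pathway, was 10.95, 9.20 and 10.77 against 11.60, 11.81 and 10.29. The members of smallest p, the enzymes Sc5d, Hsd17b7 and Msmo1, differed by -0.55 ± 0.32, -0.94 ± 0.58 and -0.66 ± 0.41.

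Endoplasmic reticulum chaperones and unfolded protein response genes lay above 0 in 20 of 21 cases (median 0.34), and ATF4 targets of amino acid starvation in 21 of 24 (median 0.39). In either list 0 were without overlap (against 9.41% of all tested genes). The chaperone list scored 0.44, 0.44 and -0.34 with alprostadil and -0.45, -0.44 and 0.47 in uninjured spheres, so replicate 3 of each group stood with the opposite group. Hspa5 (BiP, the main chaperone) was 12.45, 12.58 and 11.60 against 11.07, 11.25 and 12.66, and Ddit3 (CHOP) was 11.76, 11.95 and 10.83 against 9.49, 10.28 and 11.80. The median of the chaperone list was 0.64 without uninjured replicate 3 and 0.15 without uninjured replicate 1, and that of the ATF4 targets was 0.61 and 0.20 without the same arrays. Of the chaperone list Edem1, Ern1 and Xbp1 differed by 0.45 ± 0.28, 0.38 ± 0.26 and 0.14 ± 0.10. Of the ATF4 targets the amino acid transporter Slc7a3 and the serine synthesis enzyme Psat1 differed by 1.54 ± 0.68 and 0.80 ± 0.43, and Ddit4, an inhibitor of mTORC1, by -0.75 ± 0.35.

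Of 32 mitosis genes 27 lay below 0, with a median of only -0.07. The scores were 1.01, -0.93 and 0.14 with alprostadil and 0.75, 0.18 and -0.50 in uninjured spheres, and the median was -0.53 without alprostadil replicate 1 and 0.40 without alprostadil replicate 2. Mki67, a marker of dividing cells, was 10.64, 7.01 and 9.05 against 9.81, 8.99 and 8.07 (-0.06 ± 0.89). Spc24, Spc25 and Cdk1, the members of smallest p, differed by 0.17 ± 0.16, -0.18 ± 0.33 and -0.21 ± 0.40. DNA replication genes had a median of -0.04 (-0.22 without uninjured replicate 3 and 0.11 without uninjured replicate 1), with the cyclin Ccne1 at -0.69 ± 0.25, and the helicase subunits Mcm7 and Mcm4 at 0.24 ± 0.15 and -0.44 ± 0.33. Cell cycle inhibitors and p53 targets had 9 of 22 members without overlap (40.9%, against 9.41% of all tested genes), 7 lower and 2 higher, with mostly small differences. This list was drawn up with earlier results of these arrays known. Btg2, an early antiproliferative gene, was 9.31, 8.09 and 9.13 against 10.26, 9.63 and 10.07 (-1.15 ± 0.31, limma adjusted p = 0.538), the death receptor Fas differed by -0.42 ± 0.12, and Cdkn1a (p21) by -0.09 ± 0.08. The inhibitor Cdkn1b (p27) differed by 0.38 ± 0.14.

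**Figure D3:**
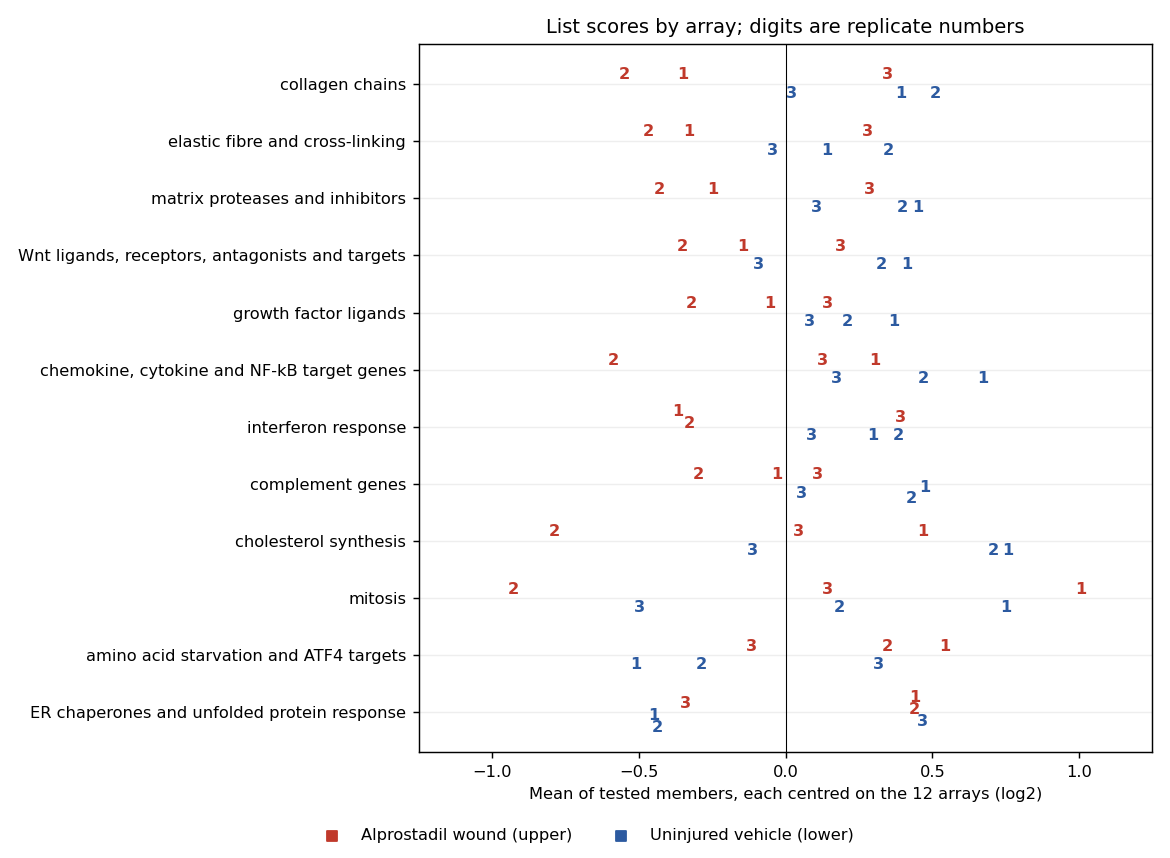
Score of 12 gene lists (rows) on each array, the mean over tested members with each gene set to 0 over the 12 arrays (x axis, log2), with the digit giving the replicate number, alprostadil wound in the upper line of a row and uninjured in the lower. In the collagen, interferon and chaperone rows alprostadil replicates 1 and 2 lie together and replicate 3 lies near uninjured replicates 1 and 2.

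Genes of prostaglandin signalling themselves showed no shared direction. Of 14 tested receptors and enzymes 8 lay above 0 and 6 below (median 0.08, and -0.05 without alprostadil replicate 1). Of the 14, 1 (7.14%, against 9.41% of all tested genes) was without overlap. The EP2 receptor gene Ptger2, which raises cyclic AMP, was 8.16, 6.84 and 6.15 with alprostadil and 6.76, 6.58 and 6.70 in uninjured spheres (0.37 ± 0.48, 95% interval -0.70 to 1.43), and alprostadil replicate 1, the array with the macrophage transcripts, was the highest. Without that array the difference was -0.19. The EP4 receptor gene Ptger4, which acts alike on cyclic AMP, was 8.48, 7.26 and 8.63 against 8.85, 8.79 and 8.07 (-0.45 ± 0.45, interval -1.44 to 0.55). Ptger3, whose EP3 receptor lowers cyclic AMP, was 6.95 to 7.20 against 6.73 to 7.16 (0.14 ± 0.20, interval -0.30 to 0.59). The prostacyclin receptor gene Ptgir differed by 0.32 ± 0.39 (interval -0.53 to 1.18). These intervals hold differences of more than 1 for Ptger2 and Ptgir, and of less than -1 for Ptger4.

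Of the enzymes, Ptgs2 (cyclooxygenase 2, which starts prostaglandin synthesis) was 12.02, 11.40 and 10.98 against 10.96, 10.59 and 11.78 (0.36 ± 0.41, interval -0.55 to 1.26). Ptges, the terminal synthase of prostaglandin E2, was 10.78, 10.55 and 10.59 against 11.18, 10.85 and 10.79, without overlap but by only -0.30 ± 0.15 (limma adjusted p = 0.708). Hpgd, which inactivates prostaglandins, was 7.84, 5.71 and 7.81 against 7.94, 9.22 and 6.94 (-0.92 ± 0.67), and its spread within each group was as wide as the difference. The thromboxane receptor gene Tbxa2r and the phospholipase gene Pla2g4a, which frees the substrate of prostaglandin synthesis, differed by -0.41 ± 0.18 and 0.41 ± 0.19 with overlap.

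Of 25 cyclic AMP and CREB genes 9 lay above 0 and 16 below (median -0.06), and 4 (16%, against 9.41% of all tested genes) were without overlap. Pde3b, described above, and Creb1, the transcription factor, were higher, with Creb1 at 10.46, 10.50 and 10.31 against 10.04, 10.18 and 10.27 (0.26 ± 0.08, limma adjusted p = 0.636). Pde4b, a phosphodiesterase induced by cyclic AMP, was 7.24, 6.62 and 6.79 against 7.51, 7.39 and 7.33 (-0.52 ± 0.21). Dusp1, a phosphatase of MAP kinases induced early by cyclic AMP, was 10.14, 9.21 and 9.42 against 11.04, 10.38 and 10.20 (-0.95 ± 0.33, interval -1.68 to -0.23). Of other early genes, Nr4a1 differed by -0.49 ± 0.26 and Il6 by -1.07 ± 0.47. Pde3b did not pass in vehicle wounds (limma adjusted p = 0.135) and passed in trimebutine wounds (0.0386), against the same uninjured arrays.

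**Figure D4:**
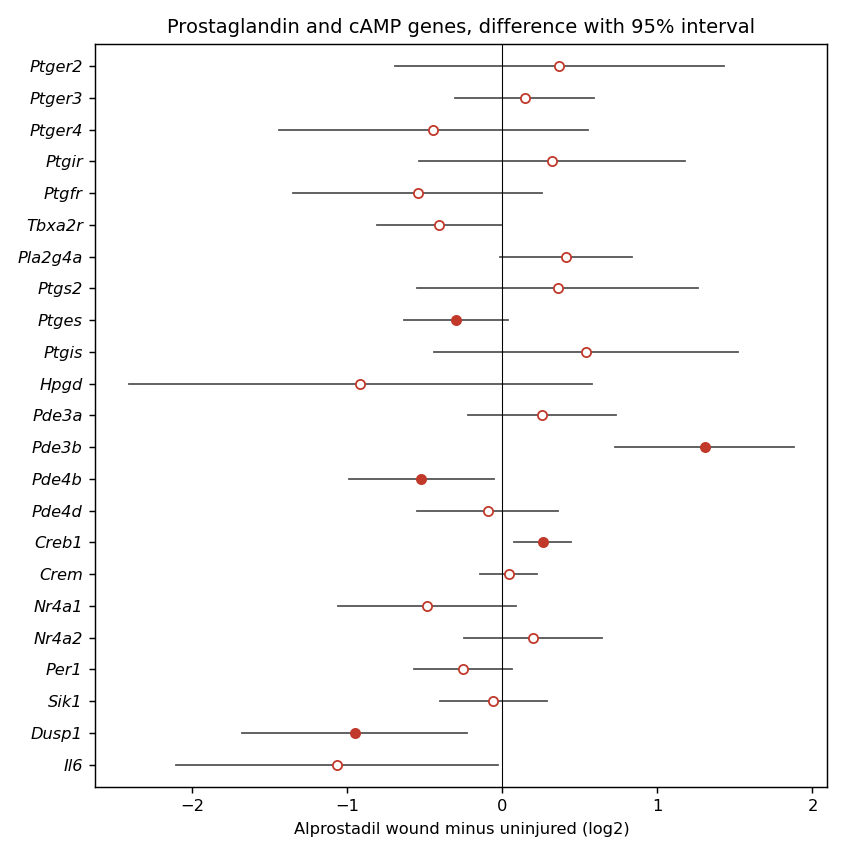
Difference between alprostadil wound and uninjured spheres (x axis, log2) for genes of prostaglandin signalling and the cyclic AMP response, with 95% intervals and filled points where the arrays of the groups do not overlap. The intervals of the receptor genes Ptger2, Ptger3, Ptger4 and Ptgir include 0, and that of Pde3b runs from 0.73 to 1.88.

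CREB binds the cyclic AMP response element, whose full form TGACGTCA is its own reverse complement, so a search covers both strands. In RefSeq promoter windows of 300 bases (250 before and 50 after a start, build GRCm38.p6) it was present in 588 of 32851 windows (1.79%). Of 44 genes of the prostaglandin and cyclic AMP lists 37 had a window and 2 held the element, Dusp1 and Prkar1a, the regulatory subunit of protein kinase A. They are printed, as the bases before the start, because they are the members in which the element can be set beside an expression value. The Dusp1 stretch is chr17:26508473-26508722 on the minus strand, with the element 143 bases before the start, and that of Prkar1a, before one of its several listed starts, is chr11:109650699-109650948 on the plus strand, with the element 49 bases before the start. The capitals mark the element.
Dusp1: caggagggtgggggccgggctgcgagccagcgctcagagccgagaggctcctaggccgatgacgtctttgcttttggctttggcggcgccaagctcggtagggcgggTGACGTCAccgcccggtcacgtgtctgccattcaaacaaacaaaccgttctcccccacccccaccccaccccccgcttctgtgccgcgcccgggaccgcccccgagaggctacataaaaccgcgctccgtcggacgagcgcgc
Prkar1a: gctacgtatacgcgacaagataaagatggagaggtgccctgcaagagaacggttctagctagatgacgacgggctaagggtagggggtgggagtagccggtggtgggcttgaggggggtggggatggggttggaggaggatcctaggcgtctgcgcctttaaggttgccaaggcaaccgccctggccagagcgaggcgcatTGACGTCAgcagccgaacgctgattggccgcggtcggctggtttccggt

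Dusp1 was lower in the alprostadil group on all 3 arrays, as given above, and Prkar1a was 9.49, 9.56 and 9.77 against 9.66, 9.60 and 9.68 (-0.04 ± 0.11), a difference that turned to 0.02 without alprostadil replicate 1. Over all 347 tested genes with the element the median difference was 0.05, with 208 above and 139 below 0. Of these, 17 were higher and 13 lower without overlap (8.65%, against 9.41% of all tested genes). A match of letters is no evidence of binding.

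Macrophage transcripts were high together on 1 array. Of 29 matched markers 17 were tested. All 17 were highest on alprostadil replicate 1 among the 12 arrays, and 16 exceeded every other array by more than 1. Adgre1, the surface receptor that defines mouse macrophages, was 11.12 there and 5.10 to 5.28 on the other 5 arrays compared, and was not tested because of the filter. Tyrobp, an adaptor of myeloid receptors, was 11.88, 6.37 and 7.15 with alprostadil and 6.94, 6.54 and 6.32 in uninjured spheres. Csf1r, the receptor that macrophages need for survival, was 10.12, 6.62 and 6.78 against 6.77, 6.59 and 6.63, and Cd68, a lysosomal protein, was 12.62, 8.46 and 8.44 against 8.61, 7.96 and 7.95. Cybb, a subunit of the phagocyte oxidase, was not limited to that array, at 12.41, 6.36 and 10.57 against 10.95, 10.82 and 10.26. The list score was 3.28, -1.0 and -0.19 against 0.17, -0.36 and -0.44. Its median difference of 1.17 became -0.09 without alprostadil replicate 1, and that of the lysosomal protease Ctss went from 1.93 ± 1.37 to -0.18. With that array left out no gene passed in limma (0, smallest adjusted p = 0.595). The part of these transcripts in other differences was not tested, beyond the values without the array given beside them.

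**Figure D5:**
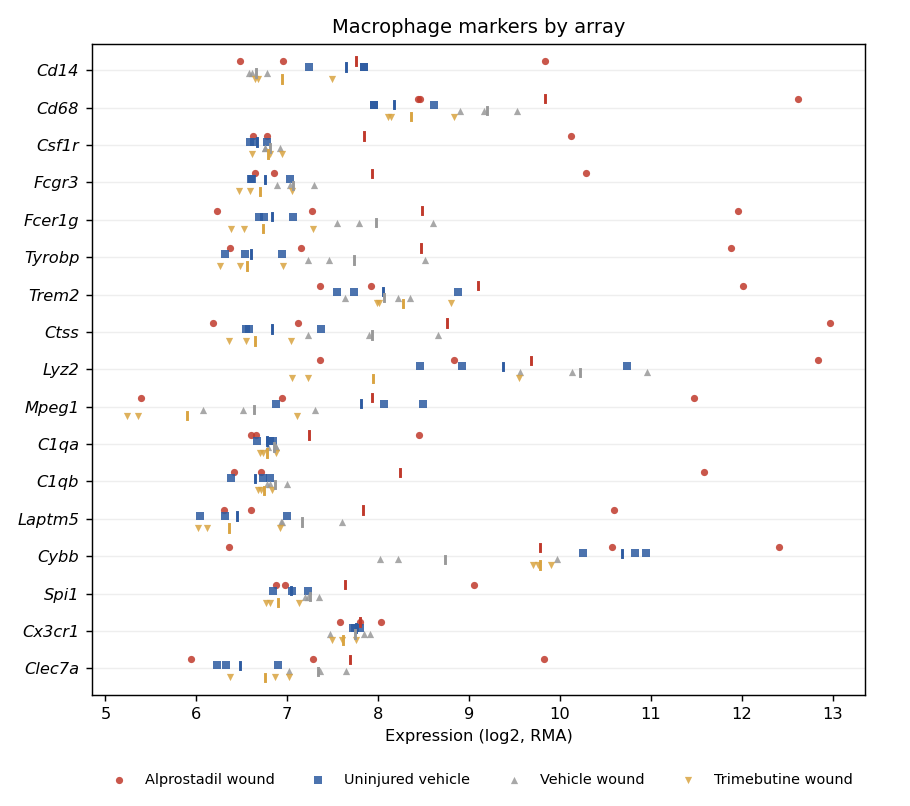
Log2 expression (x axis) of the 17 tested macrophage markers (rows) on each array, with a bar at each group's mean. Alprostadil replicate 1 is the rightmost circle in each row, with Tyrobp at 11.88 and Cd68 at 12.62 there.

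Markers of other cell types had medians nearer to 0 than the macrophage markers. Dermal fibroblast markers lay below 0 in 12 of 15 cases (median -0.32, from -0.43 without alprostadil replicate 3 to -0.16 without alprostadil replicate 2). Of the 15, 4 (26.7%, against 4.36% of all tested genes on the lower side) were without overlap, all lower. Among these 4 was Twist2, a factor of the dermal lineage, at -0.37 ± 0.15. Of endothelial markers 5 of 15 were tested, and they did not go together, since Cdh5 and Tek were higher and Eng lower as given above. Their median was 0.54, and it was -0.15 without alprostadil replicate 1. Of 10 tested keratinocyte markers 5 lay above 0 and 5 below, and Cdh1, the epithelial cadherin, was 8.62 on alprostadil replicate 1 and at most 6.93 on the other 5 arrays. Trp63, a factor of basal keratinocytes, and Sfn differed by -0.54 ± 0.16 and 0.14 ± 0.07. Of 7 tested pericyte markers 3 lay above 0, up to 0.28, and 4 below, with a median of -0.16. Steap4, given above, is on this list and was its lowest member (-1.70 ± 0.40), and Pdgfrb and Abcc9 differed by -0.37 ± 0.26 and -0.16 ± 0.12. Of the melanocyte markers Mitf, Sox10 and Kit differed by 0.20 ± 0.14, -0.21 ± 0.16 and 0.44 ± 0.38. Schwann cell and glia markers had a median of -0.04 over 8 tested members, with Gfap at 0.18 ± 0.07 and Ngfr at -0.33 ± 0.23. The 7 tested skeletal muscle markers differed by -0.36 to -0.01, with Acta1 the lowest, Pax7 at -0.13 ± 0.15 and Tnni2 at -0.07 ± 0.09. T and B cell markers had 2 tested members of 12 matched, and neutrophil and mast cell markers 4 of 15.

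Of 12 retinoic acid genes, Dhrs3 included, 8 lay below 0, with a median of -0.10 (-0.24 without alprostadil replicate 3 and -0.03 without alprostadil replicate 1). Cyp26b1, which degrades retinoic acid, and Aldh1a1, which makes it, differed by -0.30 ± 0.13 and -0.33 ± 0.16. The receptor Rara was 8.54, 8.66 and 8.76 against 8.50, 8.50 and 8.29 (0.22 ± 0.12), and Crabp1, a retinoic acid binding protein of the dermal papilla, was 13.01, 12.72 and 13.28 against 13.47, 13.40 and 13.22 (-0.36 ± 0.26). Among neuronal RNA-binding and adhesion genes, the list of Nova1, 4 of 15 (26.7%, against 9.41% of all tested genes) were without overlap. Nova1 and the synaptic adhesion gene Nlgn1 were higher (0.89 ± 0.34 for Nlgn1), and Lrrtm3 and Celf5 were lower. Nova1 and Lrrtm3 are named above for their small p, so this share is in part set by that choice. Csmd3 differed by -0.65 ± 0.23 with overlap. IGF binding proteins split, with Igfbp7 at -0.83 ± 0.32, Igfbp5 at 8.62, 8.39 and 8.39 against 10.37, 9.21 and 8.87 (-1.02 ± 0.44) and Igfbp6 at 10.13, 10.48 and 9.96 against 9.44, 9.57 and 9.96 (0.53 ± 0.19), without overlap by a margin of under 0.01.

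Set side by side over the 3 wound groups, each against the same 3 uninjured arrays, the medians of some lists were nearer to 0 with alprostadil than with vehicle and those of others farther from 0. Examples nearer to 0 were -0.55 and -0.84 for collagen chains, -0.44 and -0.85 for chemokine genes, -0.07 and -0.61 for mitosis genes and -0.56 and -0.84 for cholesterol genes. With trimebutine they were -0.02, -0.35, 0.14 and -0.45. Among the lists farther from 0 with alprostadil were macrophage markers (1.17 and 0.22), endothelial markers (0.54 and 0.15) and ATF4 targets (0.39 and 0.21). Imprinted genes (-0.12 and 0.01) and integrin subunits (-0.20 and -0.17) were others. Leaving out 1 array moved these medians by as much as the gaps in several cases. The collagen median was -0.85 without alprostadil replicate 3. Without alprostadil replicate 1 the cholesterol, mitosis, macrophage and endothelial medians were -0.90, -0.53, -0.09 and -0.15. The vehicle wound arrays were split too, with collagen scores of -0.61, -0.79 and 0.18 and mitosis scores of -0.89, -1.15 and 0.47. Vehicle medians without a single array are not given here. The list medians of all wound groups are descriptions, and no gene passed between the alprostadil and vehicle wound arrays (1 did without alprostadil replicate 2). Mmp1b was the member of the 24 with the widest gap between the wound groups, at -1.08 with alprostadil, -1.78 with vehicle and -1.88 with trimebutine, and alprostadil against vehicle wounds gave 0.70 ± 0.18 for it (limma adjusted p = 0.998). It was 6.07, 6.36 and 5.63 in vehicle wounds and 5.86, 6.03 and 5.86 in trimebutine wounds. These values lie below the array medians, where signal is weak, so the size of that gap is uncertain.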

How the data were processed

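The deposited values are log2 expression by probe set, which the authors computed with RMA and oligo per the submitters' processing notes, with versions and settings not given in the sources used here. RNA (400 ng) was hybridised to Affymetrix arrays. Of 41345 probe sets on 12 arrays, 23521 carry 1 symbol, 1814 several and 16010 none. Only the first were used, with the brightest kept per symbol, and 0 of 8379 tested probe sets of the other kinds passed (230 at an unadjusted p under 0.05). The 12 arrays in 4 groups were fitted with limma 3.58.1 (R 4.3.3), with no covariate and 8 residual degrees of freedom, and p-values are two-sided. An exact permutation test of 3 arrays against 3 cannot go below 0.1. Members and the 50 gene lists were chosen with earlier results of these data known. Of 1189 listed entries 1111 matched.

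Genes named are the 12 of smallest p and 8 largest differences in each direction, the 3 members of smallest p in each list of at least 5 tested members and 14 fixed genes, and others were chosen after their values were seen. Replicates are independent isolates per the labels. The number of arrays limits the precision. Scripts were tested on simulated data. Alternatives were other filters, probe set rules, scalings, variance models, array weights, a replicate block and leaving out arrays. Figures used Python 3.11.15 and matplotlib 3.10.9.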

Additional observations from a re-analysis of the deposited data

How the results depend on the processing

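The count of 0 genes passing held under other filters, probe set rules, scalings, variance models, the 6 arrays alone and an adjusted p of 0.1, and became 562 with array weights, where 1 uninjured array had a weight of 5.99 and alprostadil replicate 1 one of 0.30. Leaving out an array gave 0 to 11. Deviations of same-numbered replicates had no shared sign of correlation (0.31, -0.27 and -0.41). Deviations sum to 0 over the 3 arrays of a group, so these values cannot show whether the replicates were paired. With the replicate block the count was 0 and the smallest adjusted p in limma 0.159. Without the 3 arrays of lowest median, and with the 5 arrays that leave out alprostadil replicate 1, settings chosen after seeing the data, it was also 0. Of 5729 values of 221 named genes under alternatives, 5591 kept their direction and side of the threshold, 117 passed and 21 changed sign. With array weights Nes was -0.12 and Acta2 -0.092. Without the 3 arrays of lowest median Ptger2 was -0.15 and Prkar1a 0.0243. Among the 5 arrays Ptger2 was -0.19, Ctss -0.18 and Prkar1a 0.0196. Leaving out an array gave -0.25 to 0.38 for Acta2, -0.54 to 0.10 for Cdk1, -0.18 to 3.21 for Ctss, -2.21 to 0.82 for Cybb, -0.008 to 0.0508 for Fn1, -0.93 to 0.88 for Mki67, -0.0346 to 0.16 for Nes, -0.22 to 0.024 for Pax7, -0.12 to 0.0196 for Prkar1a, -0.19 to 0.82 for Ptger2 and -0.50 to 0.13 for Spc25. The cause was not tested. Signal near or below the array median limits Nes, Sox2, Il23r, C1ql1, Mmp1b, Lvrn, Lgr5 and several Hox genes.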

Other observations

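Genes of fibroblast lineages not described above lay mostly lower in the alprostadil group, with the same split between arrays. Of 17 papillary, reticular and adventitial fibroblast genes 11 lay below 0 (median -0.32, from -0.73 without alprostadil replicate 3 to -0.25 without uninjured replicate 2). Of the 17, 2 (11.8%, against 9.41% of all tested genes) were without overlap, Dlk1 higher and Ntn1, a guidance cue, lower (-0.61 ± 0.22). Thy1, a surface marker of fibroblasts, was 7.87, 8.86 and 9.76 with alprostadil and 10.25, 10.27 and 9.68 in uninjured spheres (-1.23 ± 0.40, limma adjusted p = 0.636), so alprostadil replicate 3 lay above uninjured replicate 3. Gpx3, a secreted glutathione peroxidase, differed by -1.08 ± 0.38. Of 10 tenocyte genes 8 lay below 0 (median -0.38, from -0.58 without alprostadil replicate 3 to -0.22 without alprostadil replicate 2), and Mkx, a tendon transcription factor, was 8.40, 7.92 and 9.56 against 10.79, 9.98 and 9.44 (-1.45 ± 0.52). Lpl, the lipoprotein lipase of fat cells, was 10.79, 10.48 and 11.60 against 10.12, 10.01 and 10.48 (0.75 ± 0.26), while adipocyte genes as a list had a median of 0.05, with Ebf2 at 0.37 ± 0.18 and Dgat2 at -0.83 ± 0.45. Of cartilage and bone genes Tnfsf11 (RANKL) and Sox9 differed by -1.88 ± 0.91 and 0.30 ± 0.16.

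Of 14 integrin subunits 11 lay below 0 (median -0.20, from -0.30 without uninjured replicate 3 to -0.12 without uninjured replicate 1), and Itga6 differed by 1.02 ± 0.46. Itgb8, named above for its small p, and Itgbl1 were without overlap (14.3%, against 9.41% of all tested genes). Itgbl1 was 10.04, 9.75 and 9.87 against 10.83, 10.83 and 10.50 (-0.83 ± 0.21, limma adjusted p = 0.477). Itga11, a collagen receptor subunit of fibroblasts, was 8.61, 8.26 and 9.07 against 10.65, 10.82 and 9.33 (-1.62 ± 0.58). Lists of YAP targets, hypoxia and glycolysis, oxidative stress, and ERK feedback had medians of -0.08, 0.06, 0.08 and 0.03. Among them Ccn1, a matricellular target of YAP, was 10.39, 8.52 and 10.99 against 12.10, 11.54 and 10.98 (-1.57 ± 0.66), Sod3, the extracellular superoxide dismutase, differed by -1.53 ± 0.53, and Spry2, a brake on ERK signalling, by -0.39 ± 0.15. The other leading members were Ajuba (0.37 ± 0.14) and Ccn3 (0.70 ± 0.32) of the YAP targets, Pfkp (0.49 ± 0.23) and Slc2a1 (0.29 ± 0.18) of glycolysis, Nqo1 (0.77 ± 0.31) and Cat (0.23 ± 0.12) of oxidative stress, and Junb (-0.36 ± 0.13) and Egr1 (-0.59 ± 0.26) of the early genes. Of these 8, Ajuba and Pfkp were without overlap.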
